A study of Mus musculus with 11 samples.

Results

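The microRNAs described here are those of the paralogous miR-23a, miR-27a and miR-24 and miR-23b, miR-27b and miR-24 clusters, as 5 of the 655 probes on a bead chip: mmu-miR-23a, mmu-miR-23b, mmu-miR-27a, mmu-miR-27b and mmu-miR-24. They were taken by name, star arms left out; the naming rule uses no measured value, but the clusters were picked with earlier results of these data known. Their hepatic levels were compared between 5 WT mice and 6 LivPGC-1β mice, which overexpress the coactivator PGC-1β in the liver. All 11 mice were FVB/N, 4 months old, kept on a standard diet and fasted overnight, and each array holds total liver RNA of 1 mouse. Sex, the promoter of the PGC-1β transgene and its number of founder lines were not stated in the sources read here, and the chip reads microRNAs only, so the transgene itself was not measured.

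The hairpins of each cluster lie next to each other and can be transcribed as 1 primary RNA, from which the separate mature microRNAs are cut. In the liver and in adipose tissue miR-27 is known as a repressor of lipid genes, among them the one for PPARγ, the nuclear receptor after which the PGC-1 coactivators are named. In human cells miR-23 is known to repress mitochondrial glutaminase and miR-24 to repress genes of the cell cycle, and both clusters are well expressed in endothelium. PGC-1β itself is known as a coactivator of genes for mitochondria and for lipid synthesis.

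Mature sequences were taken from the RefSeq table for assembly GRCm38.p6, where 4 of the 5 members matched, and are shown because the seed decides which members can share targets. Capitals mark the seed, bases 2 to 8 from the 5′ end.
miR-23a: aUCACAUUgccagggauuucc
miR-27a: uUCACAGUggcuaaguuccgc
miR-27b: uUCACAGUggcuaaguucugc
miR-24: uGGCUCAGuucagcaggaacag
miR-27a and miR-27b carry the same seed and are identical at 20 of 21 bases, with C19U as the lone substitution from miR-27a to miR-27b, counted from the 5′ end. The probe sequences were not used here, and how far either probe reads the other microRNA was not tested. The mature miR-24 of both clusters is 1 sequence of 22 bases, so that a single probe reads both loci.

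In GRCm38.p6 the cluster on chromosome 8 spans 404 bases, with the hairpin of miR-23a from 84208518 to 84208592, that of miR-27a from 84208672 to 84208758 and that of miR-24-2 from 84208815 to 84208921. No protein-coding gene overlaps it, and the nearest is Zswim4, 2021 bp from the miR-24-2 hairpin. The cluster on chromosome 13 spans 792 bases, with miR-23b from 63300484 to 63300557, miR-27b from 63300712 to 63300784 and miR-24-1 from 63301208 to 63301275. All of it lies inside Aopep, which encodes an aminopeptidase. Both miR-24 hairpins overlap a miR-3074 hairpin, Mir3074-2 on chromosome 8 and Mir3074-1 on chromosome 13. The deposited table gives the same chromosomes for the probes, 8 for miR-23a and miR-27a, 13 for miR-23b and miR-27b, and both for miR-24.

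Levels are intensities, which average the light of the beads that carry a probe, with no background subtracted. In the deposited table, before normalization, all 5 members were detected on all 11 arrays at a detection p of 0.01 or less, and over the whole chip 431 probes were. The members were bright on every array, with intensities from 10672 to 21533. Intensities of different probes are not amounts of RNA and are not ranked against each other here. For miR-23a the WT arrays gave 13923, 12887, 13502, 12890 and 12854, and the LivPGC-1β arrays ran from 10672 through a median of 12358 to 14969. For miR-27b they gave 15535, 15325, 14963, 15813 and 15207, and the LivPGC-1β arrays ran from 13492 through 15000 to 16635. In both, the highest and the lowest of the 11 arrays were LivPGC-1β arrays, so the WT range lay inside the LivPGC-1β range. The ranges of miR-23b were 19814 to 21308 in WT and 18011 to 21533 in LivPGC-1β mice, those of miR-27a 19463 to 20797 and 18072 to 21258, and those of miR-24 17883 to 19403 and 15933 to 19814. The brightest array exceeded the dimmest 1.18-fold for miR-27a, 1.20-fold for miR-23b, 1.23-fold for miR-27b, 1.24-fold for miR-24 and 1.40-fold for miR-23a. LivPGC-1β mice 2 and 4 held the lowest pair of values for each of the 5 members. Array medians over all probes also differed, from 743 to 1036 in WT and from 619 to 871 in LivPGC-1β mice, with LivPGC-1β mouse 2 the lowest.

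**Figure D1:**
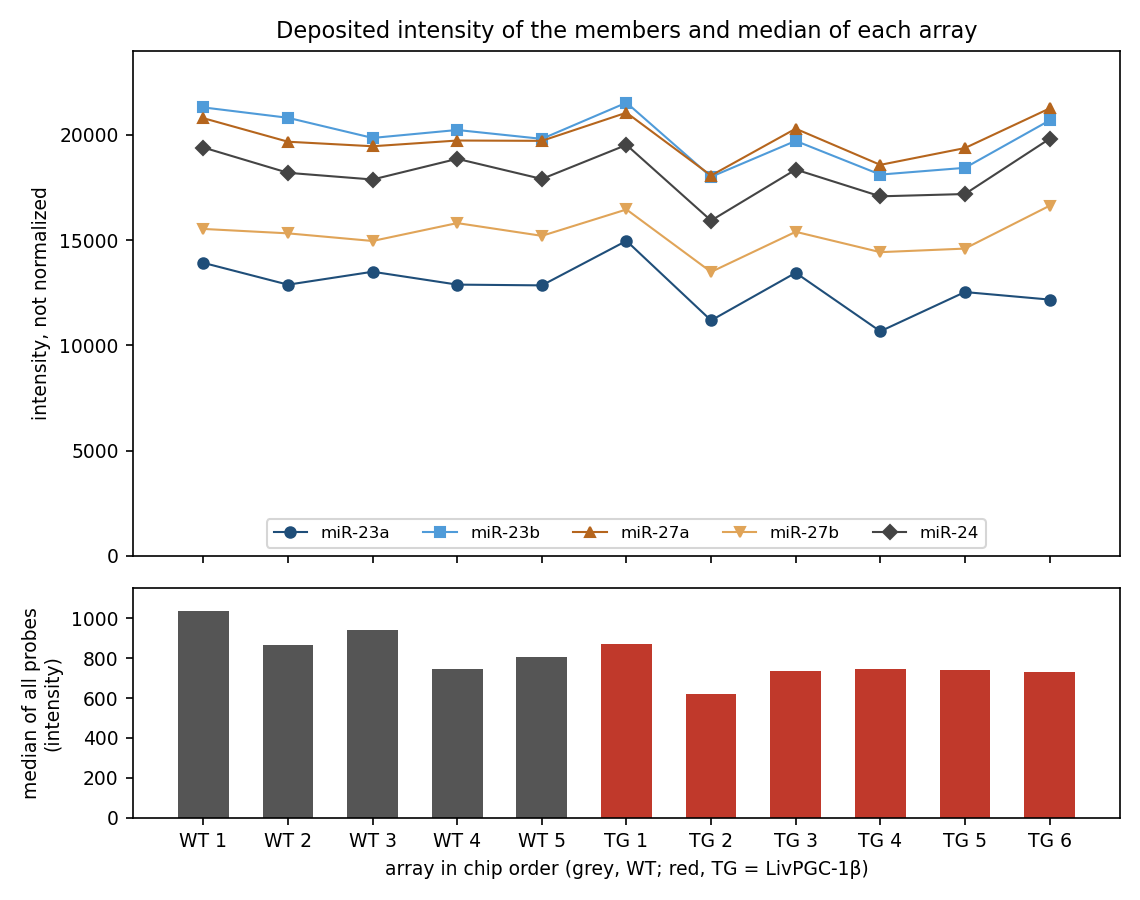
Deposited intensity (not normalized) of the 5 members on the 11 arrays in chip order, above the median intensity of all probes on each array (grey, WT; red, LivPGC-1β, labelled TG). The members fall together on LivPGC-1β arrays 2 and 4, and the median is lowest, at 619, on LivPGC-1β array 2.

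For the comparison of genotypes the arrays were quantile normalized together and set on the log2 scale, and 493 probes detected on at least 5 arrays were tested in limma, p-values being adjusted by Benjamini-Hochberg over the probes tested. No member of the clusters passed the test: of the 5, 0 had an adjusted p under 0.05, where 2.03% of the 493 probes did. Unadjusted, limma placed 0 of the 5 under 0.05, and among all 493 it placed 50 higher and 12 lower. The differences, LivPGC-1β minus WT, ran from −0.05 for miR-23b to 0.06 for miR-27b, with 3 members above 0 and 2 below, and their median was 0.002 beside 0.009 for all 493 probes. In no member were the arrays of the genotypes apart from each other without overlap, as they were in 4.67% of the probes tested. In RNA of whole liver, fewer cells of a type and less RNA per cell cannot be told apart.

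miR-23a, the first hairpin of the chromosome 8 cluster, stood at 13.68, 13.63, 13.70, 13.58 and 13.63 (log2, normalized) in the WT mice, and from 13.47 through a median of 13.68 to 13.74 in LivPGC-1β mice. The WT values lay inside the LivPGC-1β range. The means were 13.65 ± 0.05 (SD, n = 5) and 13.63 ± 0.11 (SD, n = 6), which put the difference at −0.01 (standard error 0.053, adjusted p = 0.962, limma). In fold the 95% interval of this difference was 0.915 to 1.08. LivPGC-1β mice 4 and 6, at 13.53 and 13.47, were the lowest of the 11, and the other 4 lay between 13.65 and 13.74. Without mouse 6 the difference was 0.02, so its sign rests on single mice.

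miR-27a, which shares its seed with miR-27b, stood at 14.26, 14.25, 14.29, 14.26 and 14.25 in WT, and from 14.26 through 14.29 to 14.30 in LivPGC-1β mice. The groups overlapped, with 2 LivPGC-1β mice above every WT mouse. Means were 14.26 ± 0.02 (SD, n = 5) and 14.29 ± 0.01 (SD, n = 6), and the difference was 0.02 (standard error 0.022, adjusted p = 0.662, limma), in fold 1.02 with an interval of 0.983 to 1.05.

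miR-23b, the first hairpin of the chromosome 13 cluster, stood at 14.32, 14.32, 14.30, 14.30 and 14.27 in WT, and from 14.21 through 14.25 to 14.29 in LivPGC-1β mice. Of the 6 LivPGC-1β mice 4 were lower than any WT mouse, and the other 2, at 14.29, were above WT mouse 5 alone. The difference was −0.05 (standard error 0.025, adjusted p = 0.443, limma), from 14.30 ± 0.02 (SD, n = 5) to 14.25 ± 0.03 (SD, n = 6). In fold it was 0.967, with an interval of 0.930 to 1.01.

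miR-27b, known from the liver as a regulator of lipid genes, stood at 13.84, 13.87, 13.88, 13.92 and 13.80 in WT, and from 13.91 through 13.92 to 13.92 in LivPGC-1β mice. The LivPGC-1β arrays were nearly equal, and 4 of 5 WT mice lay below all of them, with WT mouse 4 level with the highest. The difference was 0.06 (standard error 0.027, adjusted p = 0.430, limma), from 13.86 ± 0.05 (SD, n = 5) to 13.92 ± 0.01 (SD, n = 6). In fold it was 1.04, with an interval of 0.997 to 1.08.

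miR-24, read from both loci at once, stood at 14.17, 14.12, 14.17, 14.19 and 14.10 in WT, and from 14.13 through 14.15 to 14.17 in LivPGC-1β mice. All LivPGC-1β values lay inside the WT range. The means were 14.15 ± 0.04 (SD, n = 5) and 14.15 ± 0.01 (SD, n = 6), the difference was 0.002 (standard error 0.026, adjusted p = 0.983, limma) and the interval in fold 0.963 to 1.04.

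**Figure D2:**
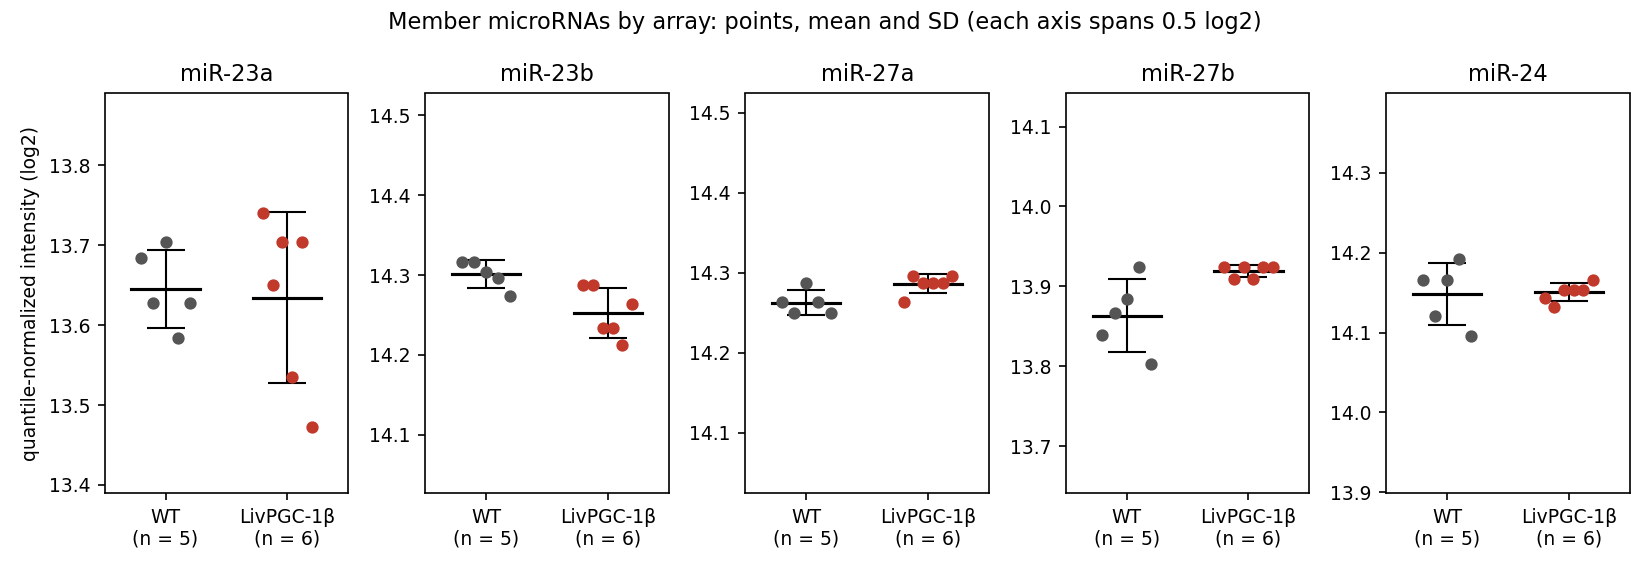
Quantile-normalized intensity (log2) of each member by genotype, 1 point per mouse, with the mean (line) and SD (bar) of 5 WT and 6 LivPGC-1β mice, each axis spanning 0.5 log2. The groups overlap in all 5 panels, and the largest difference in means is 0.06, for miR-27b.

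A two-sided exact permutation test over all 462 splits of the arrays gave miR-27b p = 0.0152, miR-23b p = 0.0216, miR-27a p = 0.0411, miR-23a p = 0.846 and miR-24 p = 0.911. Of the 5 members 3 were thus under 0.05 unadjusted, miR-23b lower and both miR-27 microRNAs higher, beside 15.0% of the 493 probes. Adjusted over the 493 probes, these exact permutation p-values became 0.187 for miR-27b, 0.218 for miR-23b and 0.312 for miR-27a. No probe of the table passed that adjustment (smallest adjusted p 0.0667, exact permutation test), while 74 were under 0.05 unadjusted and 10 passed limma. limma's standard errors take in the spread of the other probes: for miR-27a it was 0.022, against 0.0083 from the probe's own spread, and only 0.609% of the probes tested had a spread that small. Quantile normalization assigns each array the same set of values by rank, and miR-27a took only 4 distinct values over the 11 arrays and miR-27b 6, in steps with a median of 0.012 and 0.025 at their ranks.

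The scaling of the arrays moved all 5 members in common. Without normalization the differences ran from −0.09 for miR-23a to −0.01 for miR-27a, all 5 below 0, while the median of all probes tested was −0.14. With each array scaled to its median they ran from 0.16 for miR-23a to 0.24 for miR-27a, all above 0, beside a median of 0.11 over the probes tested. Relative to that median the members lay 0.05 to 0.13 higher. This value is the same under both settings by construction, since scaling moves all probes of an array alike. After quantile normalization the members lay from −0.06 to 0.05 relative to the median. Cyclic loess gave −0.02 for miR-23a, −0.03 for miR-23b, 0.04 for miR-27a, 0.04 for miR-27b and 0.01 for miR-24, with a median over the probes of −0.02. Unadjusted, 3 of the 5 were under 0.05 in limma with scaling to the array median (miR-27a, miR-27b and miR-24). Of all 493 probes 81 were higher and 4 lower there. Of the 5, 0 were without normalization (6 higher and 80 lower of all) and 0 with cyclic loess (38 and 44). With an intensity trend and a robust prior in limma 2 were, miR-23b lower and miR-27b higher, beside 51 higher and 19 lower of all. Without WT mouse 4 miR-27b was, beside 62 higher and 12 lower of all. No member passed limma's adjusted threshold in any of the 110 combinations of member and alternative, and the lowest adjusted p among them was 0.185. WT mice took chip positions 1 to 5 and LivPGC-1β mice 6 to 11, so position and genotype cannot be told apart by more than a linear term. With that term miR-23a was at 0.16 (standard error 0.092, adjusted p = 0.674, limma) and miR-23b at 0.01.

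**Figure D3:**
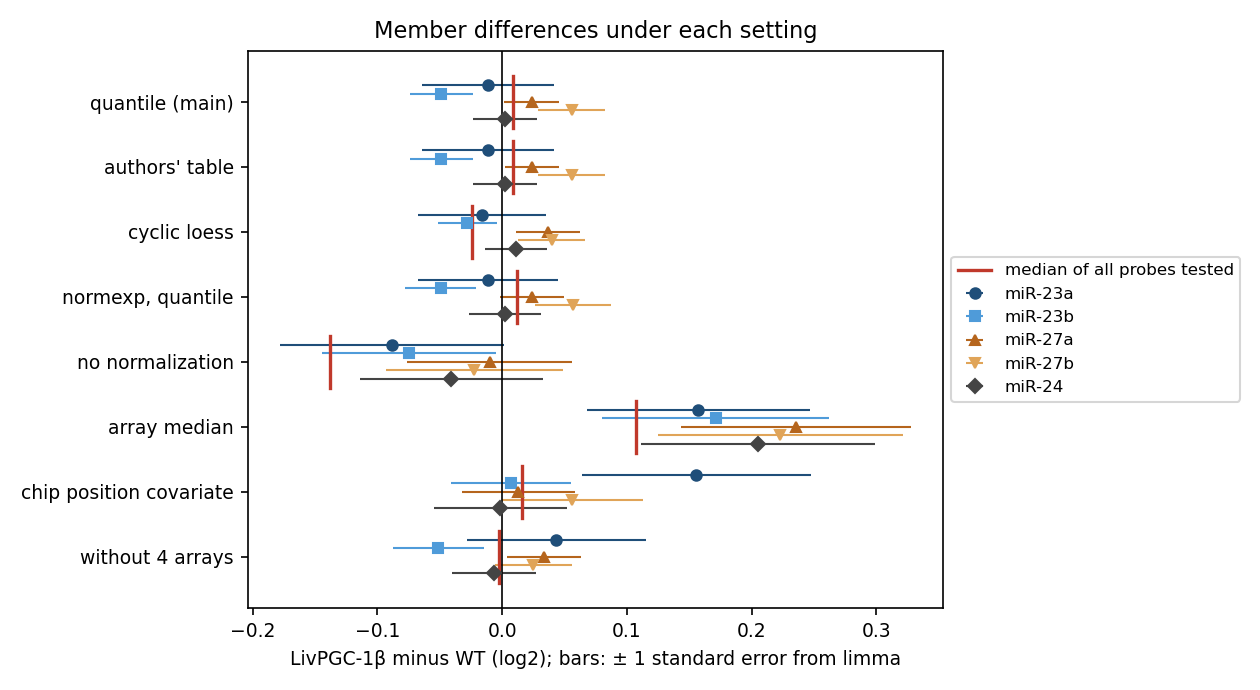
Difference LivPGC-1β minus WT (log2) of each member under 8 settings, with bars of ± 1 standard error from limma and a red line at the median of all probes tested. From no normalization to scaling to the array median the 5 members move with that line, from below 0 to between 0.16 and 0.24. In other settings not all follow it, and with the chip position covariate miR-23a is at 0.16 and the line at 0.02.

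The paralogues were set side by side within each array, where a common factor of the array drops out. The offset between a pair of probes is not a ratio of amounts, and its spread and its change between genotypes are what can be read. The log2 offset of miR-27a over miR-27b was 0.40 ± 0.04 (SD, n = 5) on the WT arrays against 0.37 ± 0.02 (SD, n = 6) on the LivPGC-1β arrays, and the LivPGC-1β range, 0.34 to 0.39, lay within the WT range of 0.34 to 0.45. That of miR-23a over miR-23b was −0.66 ± 0.05 (SD, n = 5) against −0.62 ± 0.11 (SD, n = 6), ranging from −0.71 to −0.60 and from −0.79 to −0.51. Without normalization the same offsets were 0.37 in WT and 0.38 in LivPGC-1β mice for the miR-27 pair, and −0.63 and −0.64 for the miR-23 pair. On either scale these paralogue offsets moved between genotypes by less than the SD of the WT arrays. The offset of a guide arm over its star arm depended more on the scale. For miR-27b over miR-27b* it was 3.50 ± 0.24 (SD, n = 5) on the WT arrays against 3.70 ± 0.16 (SD, n = 6) on the LivPGC-1β arrays after normalization, and 3.41 ± 0.20 against 3.79 ± 0.24 without it. For miR-27a over miR-27a* it was 5.08 ± 0.17 (SD, n = 5) and 5.13 ± 0.07 (SD, n = 6) after normalization, and 4.98 ± 0.16 against 5.23 ± 0.13 without it. Without normalization both offsets were thus larger in LivPGC-1β mice by more than the WT SD, with overlapping ranges, and this difference was not tested. A background that adds to the intensity does not drop out of an offset, and none was subtracted. The probe of miR-27a* was dim, with intensities from 474 to 731. The part of background in these offsets was not tested.

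Star arms, the less abundant strands of the same hairpins, had probes for 4 of the 6 hairpins listed, miR-27a*, miR-27b*, miR-24-1* and miR-24-2*, and all were detected on the 11 arrays. The star arms of miR-24 differ in sequence between the loci, unlike the mature miR-24, but how far either probe reads the other arm was not tested. The sequences, with bases 2 to 8 in capitals, show where they part.
miR-24-1*: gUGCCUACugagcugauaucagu
miR-24-2*: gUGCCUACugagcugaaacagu
miR-27a*: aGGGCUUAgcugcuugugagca
miR-27b*: aGAGCUUAgcugauuggugaac
Of the 4 none passed limma's adjusted threshold or p under 0.05 unadjusted, 2 lay above 0 and 2 below, and their median difference was −0.01. Without normalization all 4 lay below 0, with a median of −0.24. There 2 were under 0.05 unadjusted in limma, beside 6 higher and 80 lower of all 493 probes. With cyclic loess 3 lay below 0, with 1 under 0.05, beside 38 higher and 44 lower of all. None passed the adjusted threshold in either.

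miR-24-1*, from chromosome 13, stood at 9.55, 9.93, 9.41, 10.33 and 9.61 in WT, and from 9.64 through 9.92 to 10.09 in LivPGC-1β mice. The difference was 0.12 (standard error 0.154, adjusted p = 0.742, limma), with a 95% interval of −0.22 to 0.46. WT mouse 4 was the highest of the 11 arrays. miR-24-2*, from chromosome 8, averaged 11.70 ± 0.17 (SD, n = 5) in WT against 11.71 ± 0.07 (SD, n = 6), or 0.01 higher (standard error 0.073, adjusted p = 0.981, limma). For this arm too WT mouse 4 was the highest, at 11.96, and WT mouse 1 the lowest, at 11.49.

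miR-27b* stood at 10.42, 10.31, 10.11, 10.79 and 10.18 in WT, and from 10.04 through 10.18 to 10.51 in LivPGC-1β mice. Its difference was −0.14 (standard error 0.124, adjusted p = 0.619, limma), with an interval of −0.42 to 0.13. Its guide arm lay at 0.06, and neither arm passed the test. miR-27a* averaged 9.18 ± 0.16 (SD, n = 5) in WT against 9.15 ± 0.07 (SD, n = 6), with its difference at −0.03 (standard error 0.070, adjusted p = 0.908, limma). The intervals of the star arms were wider than those of their guide arms, and for miR-24-1* a change of up to 1.38-fold upward lay inside the interval.

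miR-128 is the relative of miR-27 outside the clusters, since the last bases of the miR-27 seed open the miR-128 seed.
miR-128: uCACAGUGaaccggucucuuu
Its loci are on chromosomes 1 and 9, and the chip carries the probes miR-128 and miR-128a:9.1. Their differences were 0.0045 (adjusted p = 0.990, limma) and 0.09 (adjusted p = 0.753, limma), each with a standard error of 0.115. Both had a broader spread over the arrays than the members, with LivPGC-1β mouse 6 the highest on each.

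**Figure D4:**
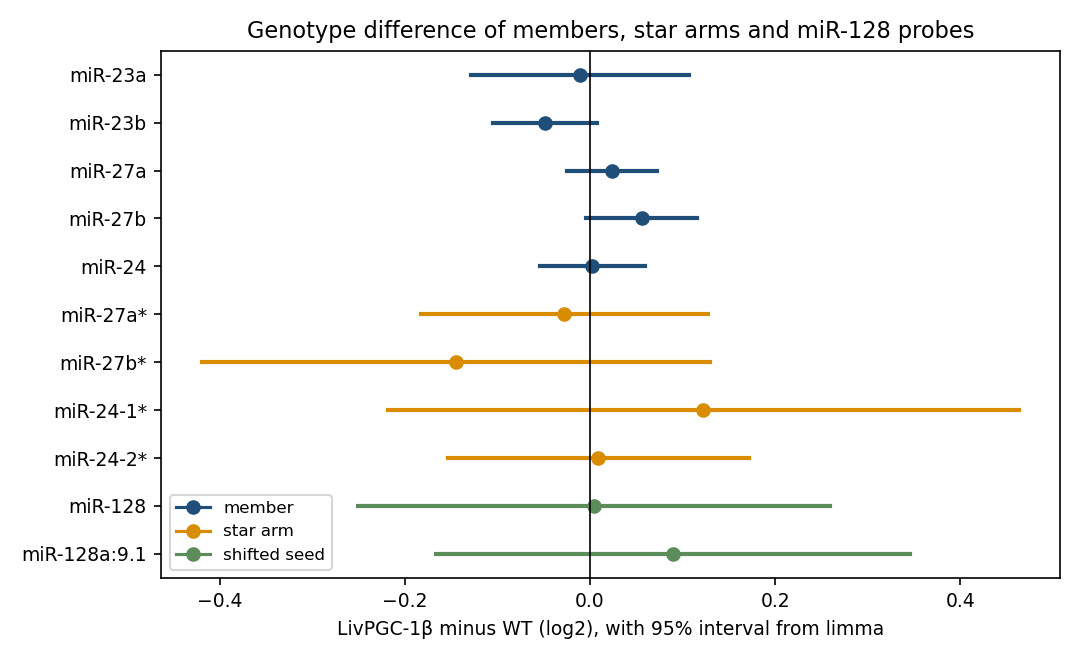
Difference LivPGC-1β minus WT (log2) with its 95% interval from limma for the 5 members, the 4 star arms of their hairpins and both miR-128 probes. All 11 intervals include 0, and those of the members are the narrower ones, from −0.13 to 0.12 at the outermost.

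The deviations of the arrays from their genotype means were compared between probes as a description, over 11 arrays that share 1 chip and 1 normalization. Among the members, Pearson's r ran from −0.18 for miR-23a with miR-27a to 0.78 for miR-27b with miR-24. Over all pairs of the 429 probes that were detected on every array and varied, the median r was 0.06 and the outer 5% on each side began at −0.57 and 0.68. For miR-27b with miR-24 Spearman's rho was 0.58, and r was 0.05 without WT mice 4 and 5, so the likeness rests on that pair of arrays. For miR-27a with miR-24 r was 0.51 (rho 0.64, and r 0.59 without WT mouse 3 and LivPGC-1β mouse 1), and for miR-23a with miR-23b it was 0.07. Without normalization r between members ran from 0.64 to 0.97, with the pairs of miR-23a from 0.64 to 0.77. Over all pairs of the 429 probes the median was then 0.46, and the outer 5% on each side began at −0.29 and 0.90.

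By the same measure, among 428 probes, miR-23a was most like miR-805 (r = 0.89), miR-192 (r = 0.85) and miR-7b (r = 0.83). miR-23b was most like miR-25 (r = 0.71), miR-138 (r = 0.70) and miR-205 (r = 0.69). miR-27a was most like miR-465c-5p (r = 0.76), miR-470* (r = 0.73) and miR-878-3p (r = 0.71), and miR-27b most like miR-338-3p (r = 0.91), miR-140 (r = 0.83) and miR-532-3p (r = 0.83). For miR-24 they were miR-101a:9.1 (r = 0.79), miR-27b (r = 0.78) and miR-106b (r = 0.74). Only in the last set was one of the 3 nearest probes another member of the clusters. Apart from miR-27b with miR-24, described above, whether any of these r values rests on single arrays was not tested. For miR-27a, WT mouse 3 lay farthest from its group mean (0.025 above), and LivPGC-1β mouse 1 next (0.023 below). The X-linked testis microRNAs described below were high in WT mouse 3, and whether this bears on the likeness was not tested.

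Of a list of 39 microRNAs tied to lipid control and PPARs, which holds no member, 36 had a probe and 35 were tested. It shares miR-122, miR-130a, miR-143, miR-144 and miR-223 with the lists for cell types. Of the 35, 0 passed limma's adjusted threshold, and their median difference was 0.01. Unadjusted, 1 was higher and 1 lower, beside 50 higher and 12 lower of all 493 probes. The smallest p was that of miR-34a, a p53 target known to act on SIRT1, at −0.29 (adjusted p = 0.181, limma). Of 9 names listed for endothelium 7 were probed and tested, none passed, 6 lay above 0 and 1 at 0, and the median difference was 0.02. The probe at 0 was miR-126-5p, which quantile normalization set to the same value on every array, so its difference could not come out otherwise. With scaling to the array median 7 lay above 0, and without normalization or with cyclic loess 2 lay above and 5 below. Within that list miR-126-3p, the best known endothelial microRNA, differed by 0.02 (adjusted p = 0.739, limma) and miR-296-5p, which had the smallest p, by 0.18 (adjusted p = 0.505, limma).

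Over the whole chip, between 444 and 508 probes were detected per array. The 3 hepatocyte markers were detected on all arrays and their median difference was −0.02, with none called. Of the 4 leukocyte markers none was called, all 4 lay above 0 (1 without normalization) with a median of 0.06, and 1 was under 0.05 unadjusted, miR-150 at 0.19 (adjusted p = 0.112, limma). Of the 2 erythroid markers none was called, and their median difference was −0.10. That median rests on miR-144, at −0.19 (adjusted p = 0.817, limma). miR-451 took the same value on every array after normalization, so its difference of 0 could not come out otherwise. Of 4 stellate cell and fibroblast markers listed, the 3 matched by name summed to between 42961 and 47917 (normalized intensity) in WT. In LivPGC-1β mice they summed to between 48367 and 50377. The ranges of these sums do not overlap. Taken singly, miR-145 and miR-214 overlapped between the genotypes. For miR-143 the arrays did not overlap, as in 4.67% of the probes tested. All 3 were above 0 (2 without normalization) and none was called. Unadjusted, 2 of the 3 were under 0.05 (miR-143 at 0.10 and miR-214 at 0.21), beside 50 higher and 12 lower of all 493 probes. The remaining name, miR-199a-3p, was not matched, since its probe also carries the name miR-199b. That probe differed by −0.07 (adjusted p = 0.525, limma), and the probe miR-199a-3p:9.1 by 0.09 (adjusted p = 0.430, limma). Neither is in the sums, and a sum with either was not taken. The sums of the endothelial list overlapped, 92844 to 93458 in WT and 92285 to 97124 in LivPGC-1β mice. The part of such cells in the differences of the members was not tested. Striated muscle markers summed to 40284 in WT mouse 1, at most 2311 in the other WT mice and at most 5968 in LivPGC-1β mice. X-linked testis microRNAs summed to 14501 in WT mouse 3, at most 1985 in the other WT mice and at most 1918 in LivPGC-1β mice. None was called in either list. With WT mice 1, 3, 5 and LivPGC-1β mouse 4 left out, a set named with earlier results of these data known, the differences of miR-23a, miR-23b, miR-27a, miR-27b and miR-24 were 0.04, −0.05, 0.03, 0.03 and −0.0064, and none passed.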

How the data were processed

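The authors hybridised 400 ng of liver RNA per mouse to the Illumina Universal MicroRNA bead chip, read it on an iScan and exported it with Genome Studio. The deposited table used here holds the average intensity of each probe, neither normalized nor background subtracted, with a detection p-value beside each, as the authors exported it. The authors' own quantile-normalized intensity, deposited as well, served as an alternative. Versions are not given in the sources used here.

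Intensities of all probes were quantile normalized over the 11 arrays and logged to base 2. A probe entered the test, in limma 3.58.1 under R 4.3.3, if its detection p was at most 0.01 on 5 arrays or more, which held for 493. P-values were adjusted by Benjamini-Hochberg, with a threshold of 0.05. The paper names no test for the arrays, so this one is a choice made here. The exact permutation test is two-sided and cannot go below p = 0.00216. The fit was tested on simulated data. Figures were drawn with Python 3.11.15. The labels do not say that equal mouse numbers pair mice, so the fit has no block. Normalization, background, filter, variance model, chip position, a block and left-out mice were varied. The number of arrays limits the precision.

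The members and lists were chosen with earlier results of these data known. All members were named, with their probed star arms, miR-128, the 3 probes most like each member and, from the lipid and the endothelial list, the microRNA with the smallest p where none was called. miR-126-3p, miR-143, miR-150 and miR-214 were added after their values were seen. Lists for hepatocytes, leukocytes, erythroid cells, stellate cells and fibroblasts, striated muscle and an X-linked testis cluster checked the tissue.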

Additional observations from a re-analysis of the deposited data

Results flagged for a closer look

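For miR-27a, LivPGC-1β mouse 1 was set apart from the other 5 LivPGC-1β mice by Dixon's ratio, at 14.26 with the next value at 14.29 (log2, normalized). The ratio of that gap to the range of the group was 0.721, above the 95% critical value for 6 samples. That value assumes untied data, while miR-27a took only 4 distinct values after normalization. Before normalization this mouse was not low, at 21058 in a LivPGC-1β range of 18072 to 21258. Its value lay among those of the WT mice, and without it the difference of miR-27a was 0.03. This was 1 of 22 groups examined over the members, star arms and miR-128 probes, and with untied values chance alone sets off about 1 group in 20.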

How the results depend on the processing

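The differences of the members were small, and their signs depend on the scaling. Of 22 alternatives for each member, 7 turned the sign of miR-23a and 7 that of miR-24, 2 that of miR-23b, and 1 each those of miR-27a and miR-27b, with no member past the adjusted threshold. Without normalization miR-27a, miR-27b and miR-24 were at −0.0099, −0.022 and −0.041. Scaling to the array median put miR-23a at 0.16 and miR-23b at 0.17. With chip position as a covariate miR-23a, miR-23b and miR-24 were at 0.16, 0.0070 and −0.0015. With the 4 mice WT 1, 3, 5 and LivPGC-1β 4 left out, miR-23a was at 0.044 and miR-24 at −0.0064. Leaving out 1 mouse at a time, miR-23a ran from −0.035 to 0.021, turning without WT mouse 3 or LivPGC-1β mouse 4 or 6, and miR-24 from −0.011 to 0.013, turning without WT mouse 2 or 5 or LivPGC-1β mouse 6.

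The count of probes called, 10 over 493 (8 higher and 2 lower; 50 and 12 unadjusted), was 9 with cyclic loess (38 and 44 unadjusted), 0 without normalization (6 higher and 80 lower at unadjusted p under 0.05, limma), 4 with scaling to the array median (4 higher; 81 and 4 unadjusted), 0 with the chip position covariate (23 and 12 unadjusted, limma) and 3 without those 4 arrays (1 higher and 2 lower). It ran from 4 to 13 with 1 mouse left out, with 4, 5 and 6 without WT mouse 1, LivPGC-1β mouse 1 and LivPGC-1β mouse 3. A replicate block over mice 1 to 5 of each group, which leaves out LivPGC-1β mouse 6, gave a count of 1, with miR-23a at 0.021 and miR-24 at −0.0017. The labels do not say whether equal numbers pair mice. The 5 same-numbered pairs correlated from −0.13 to 0.07, and none best with its own number, which does not settle it. The cause of these shifts was not tested. The members are bright, and quantile normalization leaves few distinct values at their ranks, which limits what can be resolved.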
